A study of Homo sapiens with 4 samples.

Results

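The genes described here are 53 genes of DNA replication and the G1/S transition, a list that covers origin licensing, the replicative helicase, polymerases and primase, the sliding clamp and its loader, nucleotide supply, and the cyclins and E2F factors that control them. All 53 were measured, out of 18418 genes that had at least 1 transcript cluster, the array's probe set for a transcript locus, with a single gene symbol. Where a gene had several such clusters, the brightest stood for it. Expression was measured in AGS, a long-established line of human gastric adenocarcinoma cells, on Affymetrix Human Gene 1.0 ST arrays. A pair of arrays held RNA from cells given 0.01% ornithogalum, which the series calls a homeopathic formulation, and a pair held RNA from cells given ethanol as vehicle, each after 36 h on cells near confluence. The question is which replication genes differed in level between treated and vehicle cells. All arrays came from this single line, so they carry its own alleles and no other genotype.

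Before a cell copies its DNA, the origin recognition complex (ORC) with CDC6 and CDT1 loads the MCM helicase onto origins, which is called licensing, and CDC45 and GINS then turn the loaded helicase into an active one. DNA polymerase alpha and its primase lay down primers, replication factor C (RFC) loads the PCNA clamp, and polymerases delta and epsilon extend the strands. Many of these genes are transcribed at the G1/S transition by activating E2F factors, which cyclin E and its kinase help to release from RB proteins, and E2F7 and E2F8 are E2F family members that repress such genes. Dividing epithelial cells and tumour lines carry many of these transcripts mainly around S phase, but not all of them. For the former, fewer cells in S phase and less RNA per cell cannot be told apart in a bulk sample.

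Values are deposited log2 values, and a difference is ornithogalum minus vehicle on that scale. "Rose", "fell" and "passed" refer to limma's moderated test with Benjamini-Hochberg adjustment over all 21214 named clusters, at an adjusted p under 0.05. The labels call the arrays biological replicates without saying whether the cultures were run in separate experiments. The p-values therefore reflect the spread between these samples, which may be technical, and 2 arrays per group limit the precision. The ornithogalum arrays had a lower median (4.48 and 4.62) than the vehicle arrays (4.71 and 4.70), and a larger SD within the group, 0.258 against 0.140. Of 6 epithelial markers measured, all 6 were above the median cluster, with values between 6.54 and 10.6, and 2 fell (KRT19 and CDH17). Of 11 markers of leukocytes, endothelium, fibroblasts and erythroid cells, 10 were below the median cluster and COL1A1 was above it, their values lay between 1.40 and 5.54, and 0 passed the test in either direction.

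Promoter windows from RefSeq (build GRCh38.p14, 250 bases before to 50 after each start) were matched by symbol for 47 of the 53 genes. E2F sites were searched on both strands as TTTCCCGC, TTTGGCGC, TTTCGCGC and TTTGCCGC, some of which can overlap each other on opposite strands. At least 1 of these sites was present for 27 of the 47 genes (57.4%), against 3.99% of the 27305 genes in the table and 3.31% of its 35116 windows. Sites were present for 4 of the 6 members that rose, for 4 of the 7 matched members that fell and for 19 of the 34 that did not pass. The site was thus found in windows of genes that went either way. These 5 windows are shown because each belongs to a member that passed and holds an E2F site that lies whole within the 120 bases before the start. In CDC6, GINS1 and POLE2, which also passed, the site found is not shown. It begins after the start in CDC6 and GINS1, and in POLE2 it begins before the start and runs past it. Other forms of the E2F site were not searched, so these windows may hold some before the start. The capitals mark E2F sites and CCAAT boxes, in either orientation, and each run ends at the base before the start. The first 3 genes rose and the last 2 fell.
DTL: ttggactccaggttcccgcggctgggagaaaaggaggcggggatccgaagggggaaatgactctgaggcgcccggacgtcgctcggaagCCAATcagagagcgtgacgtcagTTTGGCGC
PCNA: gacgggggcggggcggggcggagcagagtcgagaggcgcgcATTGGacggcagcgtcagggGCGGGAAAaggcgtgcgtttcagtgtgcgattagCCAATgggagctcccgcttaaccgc
RFC3: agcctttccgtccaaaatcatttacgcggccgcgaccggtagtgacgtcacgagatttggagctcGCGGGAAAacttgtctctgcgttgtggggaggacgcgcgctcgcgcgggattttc
ORC3: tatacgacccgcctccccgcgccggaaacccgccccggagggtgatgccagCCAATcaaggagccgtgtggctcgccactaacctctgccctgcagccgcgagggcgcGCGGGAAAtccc
POLA2: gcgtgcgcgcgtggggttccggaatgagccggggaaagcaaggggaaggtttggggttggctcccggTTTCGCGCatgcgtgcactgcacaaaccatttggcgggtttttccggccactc

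These windows are DTL at chr1:212035628-212035747 (plus strand), PCNA at chr20:5126623-5126742 (minus strand), RFC3 at chr13:33818029-33818148 (plus strand), ORC3 at chr6:87590015-87590134 (plus strand) and POLA2 at chr11:65261842-65261961 (plus strand). The E2F site begins 8 bases before the start in DTL, 59 in PCNA, 55 in RFC3, 12 in ORC3 and 53 in POLA2. For PCNA, the other of its windows held 0 E2F sites.

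The CCAAT box, searched as CCAAT on both strands, was present for 30 of the 47 genes (63.8%), against 39.7% of all genes and 34.6% of all windows. It was found for 5 of 6 members that rose, for 3 of 7 that fell and for 22 of 34 that did not pass. The cell cycle element TTTGAA, searched on both strands, was present for 3 of the 47 genes (6.38%), against 18.2% of all genes and 15.2% of all windows. The next 3 windows are shown because they belong to members with some of the largest differences, in which the 4 E2F strings were not found, and which hold CCAAT boxes, marked in capitals. RRM2 and E2F7 rose and PRIM1 fell.
RRM2: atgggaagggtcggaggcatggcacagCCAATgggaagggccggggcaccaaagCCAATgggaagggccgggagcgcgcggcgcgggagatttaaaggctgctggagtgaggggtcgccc
E2F7: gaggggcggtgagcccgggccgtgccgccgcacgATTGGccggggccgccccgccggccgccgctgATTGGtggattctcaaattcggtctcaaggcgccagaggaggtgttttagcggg
PRIM1: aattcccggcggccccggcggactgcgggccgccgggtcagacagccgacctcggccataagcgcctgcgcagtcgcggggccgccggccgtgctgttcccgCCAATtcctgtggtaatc

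They lie at chr2:10122619-10122738 (plus strand), chr12:77065570-77065689 (minus strand) and chr12:56752324-56752443 (minus strand), in that order. A match describes letters in the window and is not evidence that a factor binds there.

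Of the 53 genes, 6 rose with ornithogalum, 8 fell and 39 did not pass. That is 26.4% of the list, against 19.2% of all named clusters, of which 6.57% were higher and 12.6% lower. Bright clusters passed more often, and 50 of the 53 members were above the median cluster, where 31.0% of all clusters passed and 28.0% of those members did. The share of members that passed was therefore near that of clusters of like brightness. The groups did not overlap in 39 of the 53 members, 17 with ornithogalum above and 22 with ornithogalum below. Over clusters of any brightness they did not overlap in 62.2%, 32.0% above and 30.2% below. The share among bright clusters was not counted, so no excess among the members can be read from this. The members' median difference was -0.0732 (range -1.72 to 1.34), against 0.0354 over all clusters tested. Both scalings turned that median positive, to 0.0864 after median centring and 0.0338 after quantile scaling. The median of all differences was then 0.195 after centring and 0.051 after quantile scaling, and the members' median was below it each time. Clusters of any brightness enter that median, and one over bright clusters was not computed. The arrays also differed in interquartile range, 2.44 and 2.56 with ornithogalum against 2.72 and 2.71 with vehicle. The lower median therefore cannot be called particular to the members. The split between directions also moved. It went from 6 higher and 8 lower to 8 and 4 after median centring and 9 and 6 after quantile scaling. Over all clusters that passed, it went from 34.2% higher to 54.1% after median centring. Without either vehicle array limma called 0 of 21214 clusters and 0 members, while 4192 (without the first) and 3986 clusters, and 13 members each time, had an unadjusted p under 0.05. Without the second ornithogalum array 6 members rose and 13 fell, and without the first 7 rose and 8 fell. Differences reached 2-fold in 6 members, PRIM1, E2F8, ORC3 and ORC5 lower and RRM2 and E2F7 higher, and each of these passed.

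**Figure D1:**
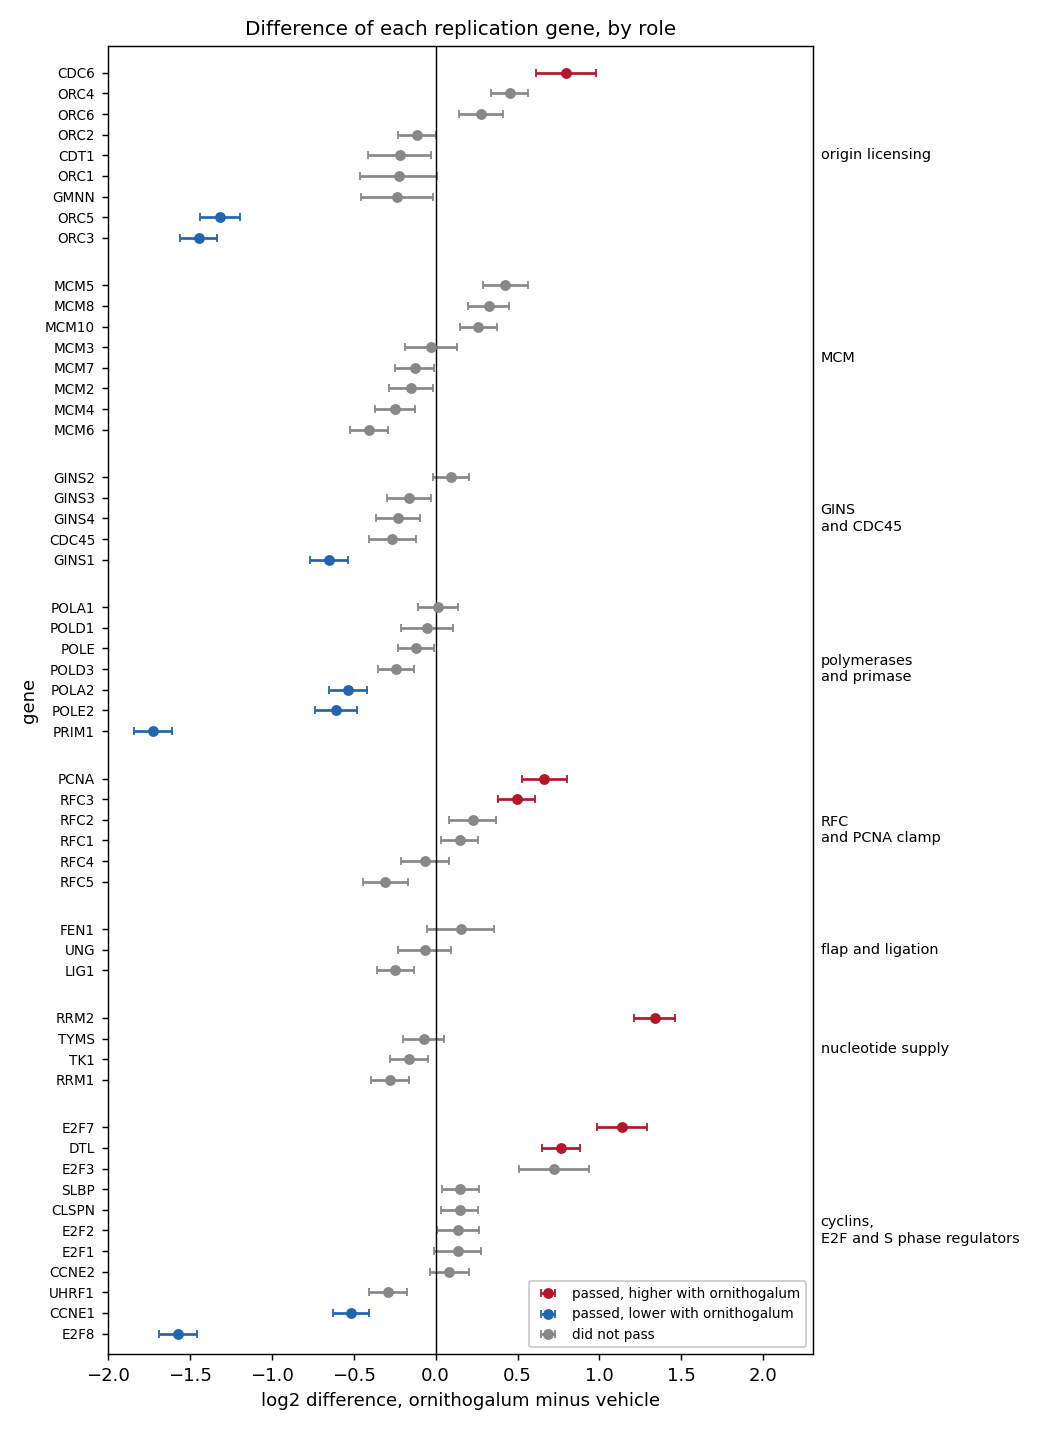
Log2 difference between ornithogalum and vehicle (x axis) for each of the 53 genes (y axis), grouped by role, with bars of 1 SE from limma and 2 arrays per group. Red points rose (6 genes), blue points fell (8 genes) and grey points did not pass (39 genes). The differences run from -1.72 for PRIM1 to 1.34 for RRM2. Of the 8 MCM genes 0 passed, against 31.0% of all clusters above the median cluster.

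Within the origin recognition complex, which marks origins throughout the cell cycle, 2 of 6 subunits fell and 0 rose, where 31.0% of bright clusters passed in either direction. ORC3, a core subunit of the complex, had values of 5.22 and 5.12 with ornithogalum and 6.62 and 6.60 with vehicle. It fell 2.72-fold (difference -1.44, SE 0.11, limma adjusted p = 0.0036). ORC5, an ATP-binding core subunit, had 4.39 and 4.53 against 5.82 and 5.73. In both genes the groups were far apart, with 1.38 and 1.20 log2 units between their nearest arrays. ORC5 fell 2.49-fold (difference -1.32, SE 0.12, adjusted p = 0.00449), to values near the medians of the ornithogalum arrays (4.48 and 4.62).

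The other ORC subunits did not pass. ORC4, another ATP-binding subunit, had 6.11 and 6.19 against 5.72 and 5.68, a difference of 0.45 with an adjusted p of 0.0513, just outside the threshold. Its groups did not overlap, as in 62.2% of all clusters. ORC4 passed as higher after both scalings, with brighter clusters only and with the intensity trend. It did not pass in the other settings that kept all 4 arrays. ORC6 differed by 0.28 (95% interval -0.07 to 0.62) and ORC2 by -0.11 (-0.41 to 0.18). ORC1, which binds chromatin in G1, had 4.58 and 5.23 against 5.08 and 5.18, so its low value came from the first ornithogalum array only.

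CDC6, the ATPase that works with ORC to load the helicase, rose. Its values were 7.88 and 7.43 against 6.79 and 6.92. Both ornithogalum arrays were above both vehicle arrays, and the rise was 1.74-fold (difference 0.80, SE 0.18, adjusted p = 0.0425). CDT1, its partner in loading, had 4.66 and 5.16 against 5.14 and 5.12. GMNN encodes geminin, the protein that holds CDT1 inactive, and had 4.53 and 5.13 against 5.03 and 5.11. Neither passed, with differences of -0.22 and -0.24, and in both the first ornithogalum array was low while the second lay 0.03 and 0.06 above the vehicle mean. Without the second ornithogalum array CDT1 (difference -0.47), GMNN (-0.54) and ORC1 (-0.55) passed as lower, and without the first their differences were positive and did not pass.

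The MCM genes encode the helicase ring (MCM2 to MCM7) and the related MCM8, which acts with MCM9 in recombination repair, while MCM10 is an unrelated initiation factor. None of the 8 passed in limma. All 8 were above the median cluster, where 31.0% of all clusters passed. The unadjusted p was under 0.05 for 3 of the 8, against 7160 of all 21214 clusters. MCM5 had the largest difference upward, with 6.81 and 6.71 against 6.21 and 6.45 (0.43, 95% interval 0.08 to 0.77, adjusted p = 0.0952). MCM6 had the largest downward, with 5.88 and 5.96 against 6.28 and 6.37 (-0.40, interval -0.70 to -0.11, adjusted p = 0.0725). Neither gene's groups overlapped, which was so for 62.2% of all clusters. MCM5 passed under 2 and MCM6 under 3 of 12 other settings, and MCM8 under 1. The other ring genes differed by -0.25 (MCM4), -0.15 (MCM2), -0.13 (MCM7) and -0.03 (MCM3), and MCM8 and MCM10 by 0.32 and 0.26. The intervals of these 6 genes lay between -0.57 and 0.64, so changes of up to about that size were not resolved with these arrays.

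GINS is a ring of 4 proteins that joins CDC45 on the MCM helicase. GINS1 fell, with 6.67 and 6.70 against 7.28 and 7.40. The groups were 0.58 apart at their nearest arrays, and the fall was 1.57-fold (difference -0.65, SE 0.12, adjusted p = 0.0204). GINS2 had 6.59 and 6.54 against 6.45 and 6.49, the only gene of this group with a positive difference (0.10). Of the 5 genes 3 were above the median cluster, all but GINS3 and GINS4. GINS3, GINS4 and CDC45 differed by -0.16, -0.23 and -0.26 and did not pass. Their groups did not overlap, as in 62.2% of all clusters, with 0.003, 0.047 and 0.073 between the nearest arrays. After median centring GINS1 did not pass (difference -0.49, adjusted p = 0.0544).

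Genes of the primer-making polymerase alpha and primase complex included the largest fall of the list. PRIM1, the catalytic primase subunit that starts each new strand with a short RNA primer, had 4.74 and 4.68 with ornithogalum and 6.38 and 6.49 with vehicle. It fell 3.31-fold (difference -1.72, SE 0.12, adjusted p = 0.00336), from 6.43 ± 0.080 to 4.71 ± 0.043 (SD, n = 2 per group). Its ornithogalum values lay near the medians of those arrays (4.48 and 4.62). POLA2, the accessory subunit of polymerase alpha, had 5.25 and 5.18 against 5.70 and 5.79 and fell 1.45-fold (adjusted p = 0.0349). The catalytic subunit POLA1 had 5.93 and 6.05 against 6.05 and 5.91. Its groups overlapped and its difference was 0.01 (95% interval -0.30 to 0.33).

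POLE2, the second subunit of polymerase epsilon, had 5.24 and 5.43 against 5.99 and 5.90 and fell 1.52-fold (difference -0.61, SE 0.13, adjusted p = 0.0326). POLE, its catalytic subunit, differed by -0.12, and the polymerase delta genes POLD1 and POLD3 by -0.05 and -0.24, and none of these 3 passed. So 3 of 7 polymerase and primase genes fell and 0 rose, with a group median of -0.24. All 7 were above the median cluster, where 31.0% of clusters passed in either direction. Over clusters of any brightness 12.6% were lower, and the share among bright clusters was not counted. After median centring or quantile scaling PRIM1 still fell and POLA2 and POLE2 did not pass, with differences between -0.34 and -0.45 and adjusted p from 0.0596 to 0.132.

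PCNA, the clamp that holds polymerases on DNA, rose. Its values were 8.28 and 8.41 against 7.80 and 7.57, and the groups were apart. The rise was 1.58-fold (difference 0.66, SE 0.14, adjusted p = 0.0303). RFC3, a subunit of the loader that opens PCNA, had 8.07 and 8.02 against 7.57 and 7.53. It rose 1.41-fold (difference 0.49, SE 0.11, adjusted p = 0.0387), and without the first ornithogalum array it did not pass, with a difference of 0.47. The large subunit RFC1 differed by 0.15, RFC2 by 0.23 and RFC4 by -0.07. RFC5 had 6.28 and 6.55 against 6.72 and 6.72, a difference of -0.31 (95% interval -0.66 to 0.05). Thus 2 of 6 genes of the clamp and loader rose (33.3%), 0 fell and 4 did not pass, a share near the 31.0% of bright clusters that passed. RFC5 passed as lower without the second ornithogalum array.

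Genes that finish the strands did not pass. FEN1, the nuclease that trims flaps of Okazaki fragments, had 6.03 and 6.56 against 6.19 and 6.10, so its ornithogalum arrays lay on either side of the vehicle arrays. LIG1, the ligase that seals the fragments, had 5.32 and 5.23 against 5.52 and 5.52 (difference -0.25, 95% interval -0.53 to 0.04). UNG, which removes uracil from DNA, differed by -0.07.

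Among genes of nucleotide supply, RRM2 stood out. RRM2 encodes the small subunit of ribonucleotide reductase, the enzyme that makes deoxyribonucleotides, and had 6.90 and 6.94 against 5.49 and 5.68. It rose 2.53-fold (difference 1.34, SE 0.12, adjusted p = 0.00449), from 5.58 ± 0.13 to 6.92 ± 0.025 (SD, n = 2 per group), the largest rise of the 53 genes. RRM1, the large subunit of the same enzyme, had 7.27 and 7.40 against 7.60 and 7.62. Its groups did not overlap, as in 62.2% of all clusters, and its difference of -0.28 (95% interval -0.58 to 0.02) did not pass. TYMS, which makes thymidylate, and TK1, which salvages thymidine, differed by -0.07 and -0.16 and did not pass.

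**Figure D2:**
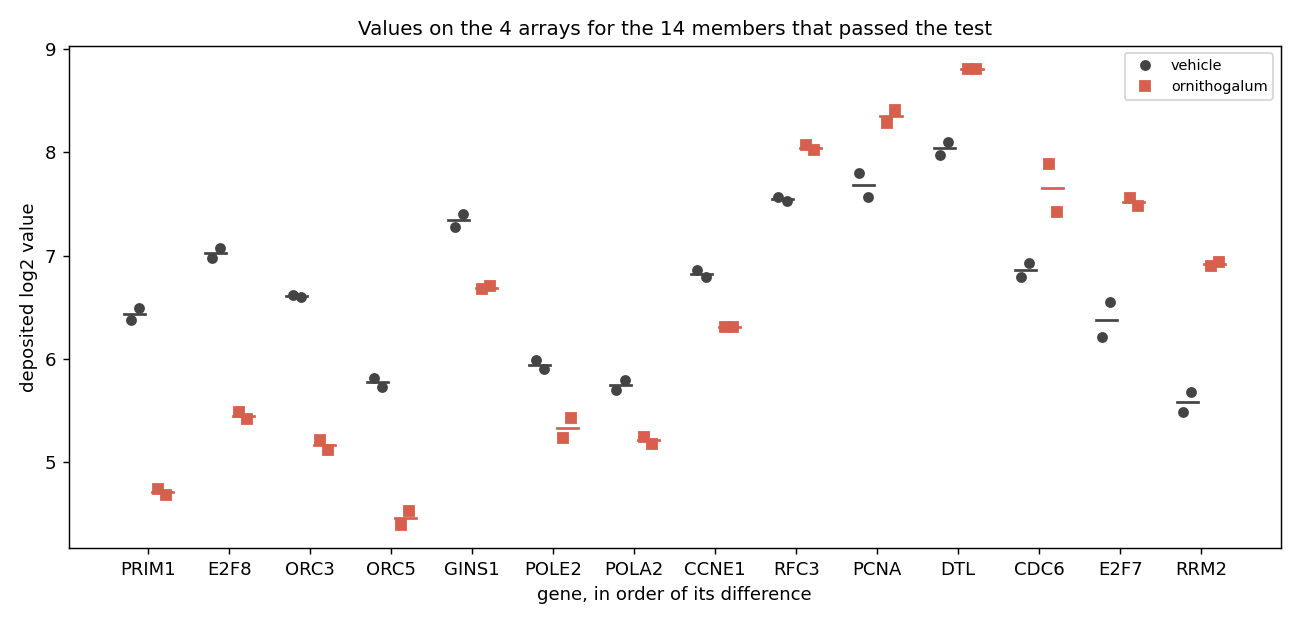
Deposited log2 values (y axis) on the 2 vehicle arrays (circles) and the 2 ornithogalum arrays (squares) for the 14 genes that passed (x axis, in order of difference), with a line at each group mean. Values are to be compared within a gene. In each of the 14 genes the groups are apart, as in 62.2% of all clusters. With 2 arrays per group, passing the test makes this likely, so it is not a separate result. CDC6 shows the widest gap between ornithogalum arrays, 7.88 and 7.43.

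The repressor genes E2F7 and E2F8, whose proteins bind the same sites and can act together, moved in opposite directions. E2F7 had 7.56 and 7.48 against 6.21 and 6.55 and rose 2.20-fold (difference 1.14, SE 0.16, adjusted p = 0.0102). E2F8 had 5.48 and 5.42 against 6.98 and 7.07. Both genes' groups were well apart, and E2F8 fell 2.97-fold (difference -1.57, SE 0.11, adjusted p = 0.00336). Both calls held in the same direction after median centring and after quantile scaling.

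The activating E2F genes did not pass. E2F3 had 5.49 and 5.99 against 5.16 and 4.88, a difference of 0.72 (95% interval 0.18 to 1.26, adjusted p = 0.0784), and its arrays were spread in both groups. It passed as higher under 5 of 12 other settings. E2F1 and E2F2 differed by 0.14 each, with overlapping groups and intervals of -0.23 to 0.50 and -0.19 to 0.47.

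Of the cyclins E, which activate CDK2 at the G1/S transition, CCNE1 fell and CCNE2 did not pass. CCNE1 had 6.31 on both ornithogalum arrays against 6.86 and 6.79 with vehicle, a fall of 1.43-fold (difference -0.52, SE 0.11, adjusted p = 0.0348). After median centring its difference was -0.36 and it did not pass. CCNE2 had 6.06 and 6.17 against 6.08 and 5.98, with overlapping groups.

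DTL, also called CDT2, is the substrate receptor of a CUL4 ubiquitin ligase that removes CDT1 in S phase. It had 8.80 and 8.81 against 7.97 and 8.10. The ornithogalum arrays were nearly equal and above both vehicle arrays, and DTL rose 1.70-fold (difference 0.77, SE 0.12, adjusted p = 0.0132). UHRF1, which keeps DNA methylation through replication, differed by -0.29 on its brighter cluster and by -0.04 on the other. CLSPN, the checkpoint mediator claspin, differed by 0.15 on its brighter cluster and 0.42 on the other. SLBP, which binds histone mRNA, differed by 0.15. None of these 3 genes passed, on any of their clusters.

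**Figure D3:**
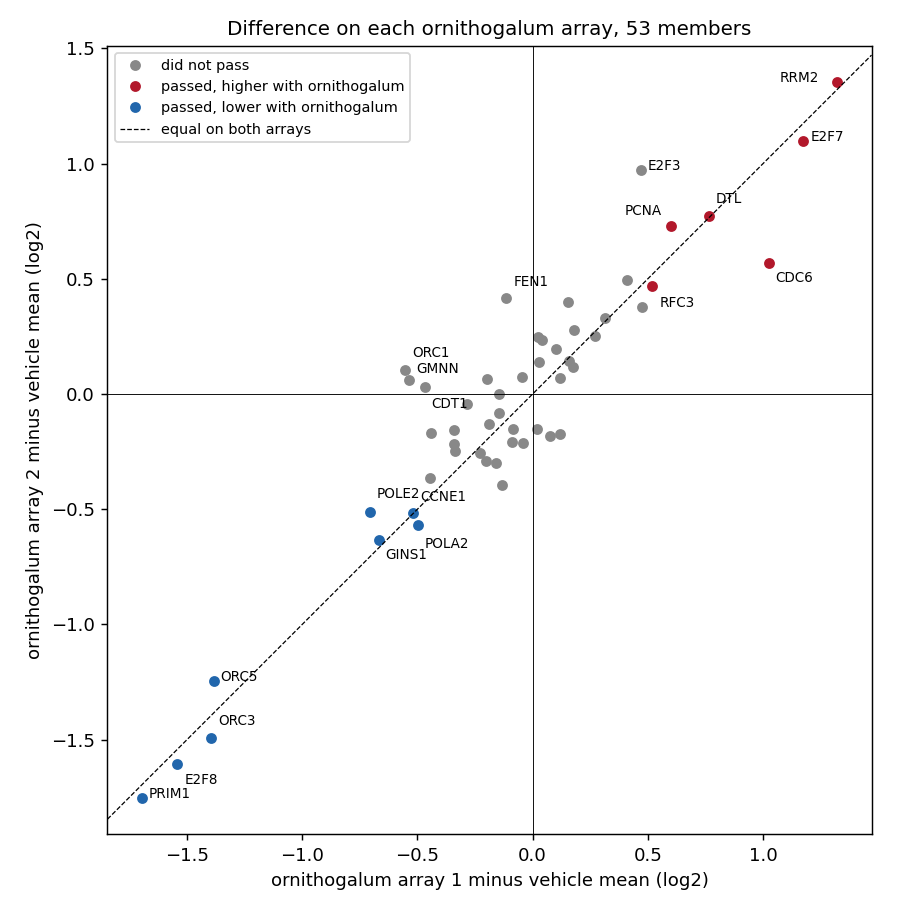
Difference of each of the 53 genes from the vehicle mean on ornithogalum array 1 (x axis) and array 2 (y axis), in log2 units, with the dashed line marking equal differences. The 14 genes that passed have the same sign on both arrays, which follows where the groups do not overlap. ORC1, GMNN, CDT1, FEN1, E2F3 and CDC6 lie farthest from the line, with ornithogalum arrays at least 0.4 apart.

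The ornithogalum arrays were at least 0.4 log2 units apart in 6 members, a limit chosen after the values were seen, and the vehicle arrays in 0. The 6 were ORC1 (0.66 apart), GMNN (0.60), FEN1 (0.53), E2F3 (0.50), CDT1 (0.50) and CDC6 (0.46). The share of all clusters with such a gap was not counted, so these 6 cannot be called unusual. The median gap was 0.112 between ornithogalum and 0.0944 between vehicle arrays. The first ornithogalum array was the lower of the pair in ORC1, GMNN, CDT1, FEN1 and E2F3 and the higher in CDC6. This array also had the lower median over all clusters, and the part of that in these gaps was not tested.

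**Figure D4:**
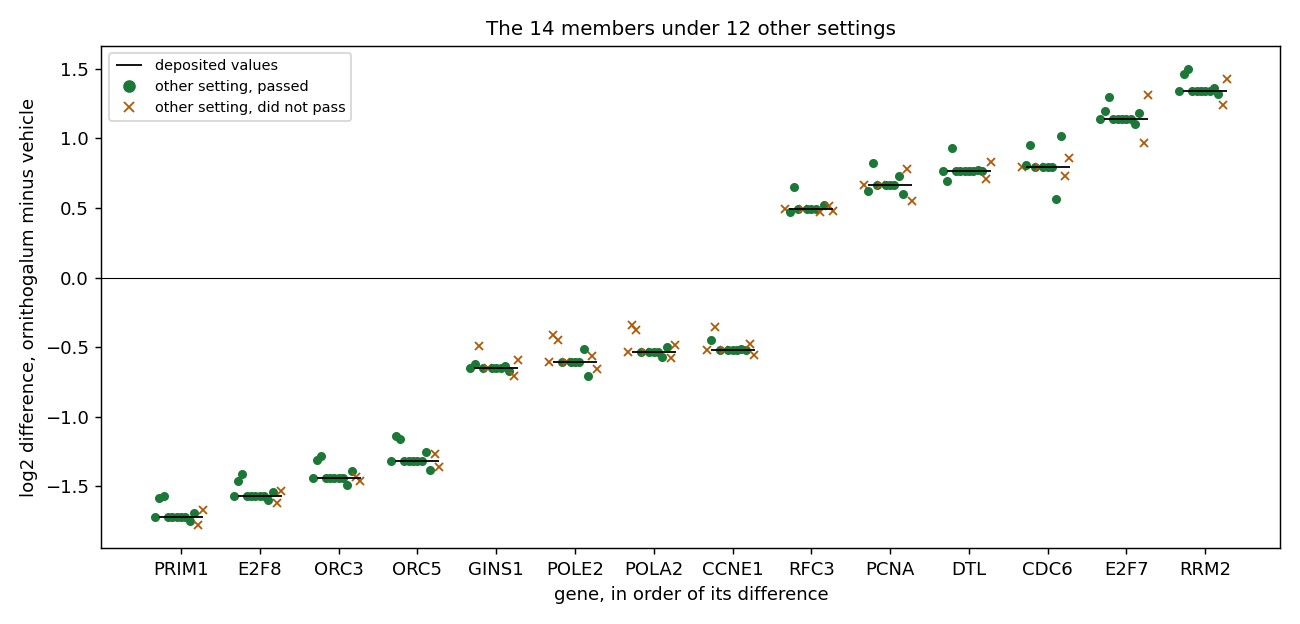
Log2 difference (y axis) of the 14 genes that passed (x axis) on the deposited values (black bars) and under 12 other settings, as green circles where the gene passed and orange crosses where it did not. The sign is the same in each setting, though only the scalings could have changed it. ORC3, ORC5, PRIM1, RRM2, E2F7, E2F8 and DTL passed in each setting that kept all 4 arrays, but not without a vehicle array.

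Further genes of replication and S phase entry, 63 genes none of which is among the 53, were taken from a separate list. Of 62 measured, 7 rose, 18 fell and 37 did not pass, with a median of -0.23. That is 40.3%, and 42.9% of the 56 that were above the median cluster, where 31.0% of all clusters passed. Falls also outnumbered rises over all clusters, where 1393 were higher and 2683 lower. The split depended on the scaling, since median centring gave 10 higher and 10 lower and quantile scaling 11 and 15. Over all clusters these scalings gave 2238 higher and 1898 lower, and 1817 higher and 2308 lower. The 3 of smallest p were RRM2B, SKP2 and CUL4A. RRM2B, the p53-induced alternative small subunit of ribonucleotide reductase, had 7.39 and 7.52 against 6.08 and 6.06 and rose 2.61-fold (adjusted p = 0.00399). SKP2, which directs the degradation of the inhibitor p27, had 5.67 and 5.61 against 6.83 and 6.94 and fell 2.37-fold (adjusted p = 0.00449). CUL4A, a scaffold of the ligase that DTL serves, had 5.42 and 5.43 against 6.80 and 6.58 and fell 2.40-fold (adjusted p = 0.00532).

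Partners of the E2F factors were looked up after their values were seen. TFDP1 and TFDP2, which pair with E2F proteins to bind DNA, fell 1.99-fold and 1.64-fold (adjusted p = 0.018 for each). Of the pocket proteins that restrain E2F, RB1 rose 1.55-fold (adjusted p = 0.0214) and RBL2 fell 2.54-fold (adjusted p = 0.00913), while RBL1 differed by -0.41 and did not pass (adjusted p = 0.109). E2F5, an E2F that pairs with RBL proteins, fell 1.49-fold (adjusted p = 0.0414), and E2F4 and E2F6 differed by 0.13 and -0.20 and did not pass. Of further genes of the separate list, LIN54 and LIN52 rose 2.43-fold and 1.80-fold (adjusted p = 0.00564 and 0.0154). MYBL2 fell 1.64-fold (adjusted p = 0.0157), and LIN9 and LIN37 did not pass. CDC7 and CDC25A are not E2F partners and were also picked after their values were seen. CDC7, the kinase that fires licensed origins, fell 2.51-fold (adjusted p = 0.0126), to 3.61 and 3.79, below the medians of the ornithogalum arrays. CDC25A, the phosphatase that activates CDK2, rose 1.87-fold (adjusted p = 0.00781).

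For the next phase of the cycle, 30 mitotic genes were set beside the replication genes. Of these 3 rose, 6 fell and 21 did not pass, with a median of -0.07. Median centring gave 5 higher and 4 lower with a median of 0.09, and quantile scaling 3 and 5 with a median of -0.13. The 3 of smallest p were HMMR and ASPM, both spindle proteins, which fell 3.63-fold and 3.07-fold, and the mitotic kinase gene CDK1, which rose 1.92-fold (adjusted p = 0.00336, 0.00468 and 0.00726). HMMR had 3.93 and 3.88 with ornithogalum, below the medians of those arrays. By mean over the 4 arrays all 30 were above the median cluster, and the 30.0% of them that passed is near the 31.0% of all such clusters that did.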

How the data were processed

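RNA from 4 AGS cultures, 2 per group, was measured on arrays. The authors made the deposited log2 values with RMA; the submitters' processing notes name Affymetrix Expression Console 1.1. For its settings and the genome build, nothing is given in the sources used here, and the columns do not share a distribution. Of 33297 clusters, 19461 had 1 gene symbol in the platform annotation of 2016, 1753 several and 12083 none in the table used here. The 21214 with a symbol were tested with limma 3.58.1 in R 4.3.3 (lmFit, eBayes), two-sided, with no filter on dim clusters. The members and gene lists were chosen with earlier results of these data known. By rule, all 4 arrays are given for members that passed and for the highest and lowest difference in each role group, and the 3 of smallest p are named from other lists. Other values given by array were chosen after they were seen. The limma code was tested on simulated data. Alternatives were the replicate block, leaving out each array, 2 scalings, other sets of clusters, an intensity trend, array weights and an adjusted p under 0.1. Same-numbered arrays were checked for pairing (correlation of deviations -0.0585) and were not treated as paired. Promoter motifs were searched with Python 3.11.15.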

Additional observations from a re-analysis of the deposited data

How the results depend on the processing

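All 14 members that passed kept their sign under the 12 other settings fitted to them, but most of these could not change it. The block, the intensity trend, array weights and other sets of clusters leave the difference itself unchanged. Leaving out an array cannot reverse the sign of a gene whose groups do not overlap. Only the scalings could have moved it. Each of the 14 passed with brighter clusters only, with clusters of 1 symbol, with the intensity trend and with array weights. With the replicate number as a block, which only names the arrays here, 3 members rose and 5 fell, and CDC6, POLA2, POLE2, RFC3, PCNA and CCNE1 did not pass. Testing all clusters of the table gave 3 and 4, with 2644 clusters called against 4076. The intensity trend gave 10 rises, and an adjusted p under 0.1 gave 9 rises and 9 falls. After median centring 4 members fell. The members' median was 0.0338 after quantile scaling and 0.0864 after median centring, against 0.051 and 0.195 over all clusters of any brightness. Leaving out 1 array gave 0 to 7 rises, 0 to 13 falls, 0 to 7058 clusters called and a median from -0.119 to -0.00184; with a lone array in a group, that array is assumed to vary like the other group. Median centring adds the same amount to every difference, by its construction. The cause of the other shifts was not tested.

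Some members that had not passed changed sign, still without passing. This was so after quantile scaling in ORC2 (0.0259), MCM2 (0.0537), MCM3 (0.0338), POLD1 (0.146), POLE (0.0466) and UNG (0.0967). After median centring the values were 0.046 for ORC2, 0.0111 for MCM2, 0.132 for MCM3, 0.0311 for MCM7, 0.105 for POLD1, 0.041 for POLE, 0.0946 for RFC4, 0.0939 for UNG and 0.0864 for TYMS. Leaving out 1 array gave a range that crossed 0 for ORC1 (-0.552 to 0.103), CDT1 (-0.468 to 0.0299), GMNN (-0.536 to 0.0623), MCM3 (-0.176 to 0.12), POLA1 (-0.053 to 0.0818), POLD1 (-0.187 to 0.0783), RFC4 (-0.195 to 0.0644), FEN1 (-0.114 to 0.418) and UNG (-0.205 to 0.0735).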
